A study of Drosophila melanogaster with 34 samples.

Results

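Small RNA reads in the sense orientation of annotated 3' untranslated regions (3' UTRs) of Drosophila melanogaster genes were followed through sperm, testis and seminal vesicle. The deposited sense table holds 46612 rows, and the 12646 rows of its 3' UTR class, each summing the sense reads of the 3' UTR of 1 gene, were all taken. Of these, 11505 had at least 1 count in a library used here and 1141 had none. A further 13381 rows hold the protein-coding exons and 12029 the 5' UTRs, and 12249 genes have both a 3' UTR row and an exon row. The exon row of the same gene serves throughout as the measure against which its 3' UTR is read.

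PIWI-interacting RNAs (piRNAs) are small RNAs carried by the PIWI clade of Argonaute proteins, which in the fly are Piwi, Aubergine (Aub) and AGO3. Piwi acts in the nucleus and silences transcription of transposons, and Aub cuts their transcripts in the cytoplasm of germ cells, a step that also makes new piRNAs. Most piRNAs come from clusters of transposon remnants and from transposons themselves, but some come from messenger RNAs, and in the somatic cells of the fly ovary these genic piRNAs come mainly from 3' UTRs, in the sense orientation. The 3' UTR of traffic jam (tj) is the best known source. A genic source of this kind gives many reads from its 3' UTR and few from its coding exons, whereas fragments of an abundant messenger RNA can come from all of it.

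The series holds 34 samples, of which 22 are small RNA and 12 are embryo messenger RNA libraries that were not used here. The small RNA groups are sperm of wild-type flies, of piwi mutants and of aub mutants (3 libraries each), PIWI immunoprecipitates (IP) from wild-type seminal vesicle (4 libraries), total small RNA from wild-type seminal vesicle (3 samples, of which 2 have a column used here), and wild-type testis labelled T1, T2 and T3 (2 samples each, of which 1 each has a column used here). The seminal vesicle is the organ that stores mature sperm, so its libraries can hold sperm as well as the wall of the organ. The labels give no allele for either mutation, no age or strain, and no meaning of T1, T2 and T3. They do not say whether replicates came from separate flies or cultures, so p-values measure the spread between these samples, which may be technical. The testis libraries, but not those of sperm, were made at a reduced reaction volume, so tissue and library volume cannot be told apart between sperm and testis.

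The sense totals were 2325192 to 18515091 counts per library, of which 63.6% to 87.5% were rRNA and 44960 to 373945 counts lay in 3' UTRs. A row needed 3 counts to lie above the limit that a count of 0 allows, which was 0.162 to 1.29 counts per 1000000 (CPM), and 4722 to 8457 3' UTR rows had a count in each library. The deposited rows carry neither UTR lengths nor read lengths, so levels are compared between libraries and not between genes, and piRNAs are not told from other small fragments. The sense exon rows of piwi and aub held 0 to 2 counts in each sperm library and give no check of the genotype labels. The list of spermatid transcripts marks the germ line of the testis and also holds genes of meiosis such as bol. The 3' UTRs of the list summed to 1983, 2982 and 3556 per 1000000 counts outside rRNA in T1, T2 and T3. In wild-type sperm they summed to 46.6 to 106. Seminal fluid genes of the accessory gland summed to at most 1.70 in testis, with 24 of 25 rows at 0 in each testis library, but to 129 to 371 in wild-type sperm. Muscle genes summed to 67.4, 132 and 162 in T1, T2 and T3 and to 784 to 1900 in wild-type sperm. In bulk libraries like these, fewer cells of a type and less RNA per cell cannot be told apart.

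In wild-type sperm, 3' UTRs held 10.8% ± 3.83 (SD, n = 3) of the sense counts outside rRNA, with 6.46%, 13.8% and 12.1% in the libraries. They held 10.4% ± 1.89 (SD, n = 3) in piwi mutant sperm and 11.8% ± 0.454 (SD, n = 3) in aub mutant sperm. The IP libraries had 6.86%, 6.10%, 8.21% and 8.46%, and the total RNA libraries of the same organ 4.77% and 5.11%. The testis libraries had 4.66% (95% exact Clopper-Pearson interval 4.62 to 4.70), 5.57% (5.52 to 5.61) and 6.54% (6.50 to 6.59) in T1, T2 and T3, where the intervals cover counting error only. All 4 IP libraries lay above both total RNA libraries, by 2.47 percentage points on average, with p = 0.133 in a two-sided exact permutation test whose smallest possible p is 0.0667. Sperm exceeded testis by 5.18 points, but the lowest sperm library lay below T3, and the exact permutation p was 0.2 where 0.1 is the smallest possible. That test takes T1, T2 and T3 as replicates of 1 testis group, though they are differently labelled samples. The mutants differed from wild-type sperm by -0.361 points (piwi, exact permutation p = 0.8) and 0.979 points (aub, p = 0.9), less than the spread between the wild-type libraries.

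**Figure D1:**
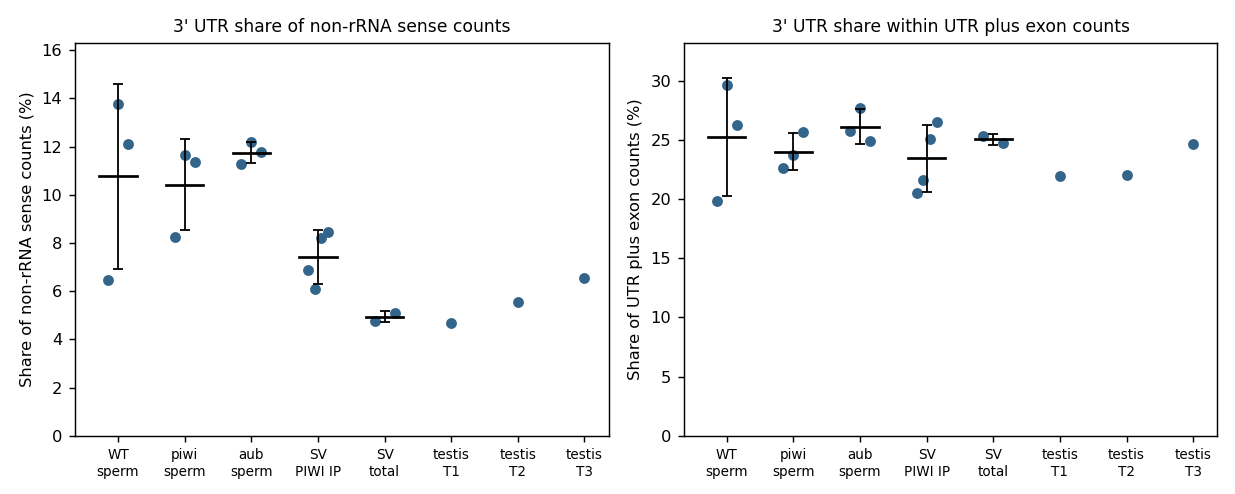
Share of 3' UTR reads per library in each group: the left panel gives 3' UTR counts as a percent of sense counts outside rRNA, and the right panel gives 3' UTR counts as a percent of 3' UTR plus exon counts over genes that have both rows. Points are libraries and bars are the mean and SD, where a group has more than 1 library. The sperm groups lie highest on the left, around 10.4% to 11.8%, and the groups run together on the right.

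Set against the exons of the same genes, the 3' UTRs gave 25.3% ± 4.97 (SD, n = 3) of UTR plus exon counts in wild-type sperm, 24.0% ± 1.54 in piwi and 26.1% ± 1.46 in aub mutant sperm (SD, n = 3 each). The share was 23.4% ± 2.85 (SD, n = 4) in the IP, 25.0% ± 0.448 (SD, n = 2) in total RNA, and 21.9%, 22.1% and 24.7% in T1, T2 and T3. The exact permutation p of the 5 differences between groups was 0.2 to 0.9; the smallest possible p is 0.1, or 0.0667 for the IP, so these tests could not pass a threshold of 0.05 at any difference. Over all used libraries together, 5919 genes had at least 200 counts in UTR and exon rows, and the median gene had 17.4% of them in its 3' UTR (quartiles 6.84% and 33.9%). The 3' UTR exceeded the exons in 724 of these genes and held over 90% of the counts in 42. The antisense strand of 3' UTRs carried few reads: per 100 sense 3' UTR counts there were 7.76 ± 3.01 antisense counts in wild-type sperm (SD, n = 3), 5.48 ± 0.369 in the IP (SD, n = 4), and 12.7, 11.7 and 11.1 in T1, T2 and T3.

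A small number of rows carried much of the 3' UTR signal in sperm. The 3' UTR of CG18628 (Release 6 assembly, the dm6 coordinates of the gene 3L:10639740-10640136) alone held 20.3% of all 3' UTR counts in wild-type sperm, 12.8% to 27.9% by library, and 17.9% and 20.2% in piwi and aub mutant sperm. It held 6.16% in seminal vesicle total RNA, 1.72% in the IP and 2.53% in T3. Next in wild-type sperm came MtnA (1.27%), a metallothionein, Arc1 (0.965%), a capsid-forming protein related to retrotransposons, and Vha16-1 (0.887%), a proton pump subunit. The leading rows of T1 were others: CG44774 (2.04%), Trl (1.75%), which encodes GAGA factor, Mst84Db (1.73%), a gene of the sperm tail, CG4836 (1.47%), RpL10Ab (0.807%), a ribosomal protein, and tj (0.801%). The 10 leading rows together held 25.9% of the 3' UTR counts in wild-type sperm, 7.84% in the IP and 11.2% in T1.

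The testis series T1 to T3 asks where along the testis samples each 3' UTR has its reads. With 1 library each, these are values with counting intervals and no test. Of 482 rows with at least 30 counts, 8 had a T1 to T3 ratio whose lower 95% bound exceeded 2, 94 had an upper bound under 0.5, and 380 lay between; the median ratio was 0.62. The CPM here is scaled by the trimmed mean of M-values (TMM) over all rows of the sperm and testis libraries. With total sense counts as library size, every T1 to T3 ratio is higher by a common factor, such as 6.64 in place of 4.76 for tj and 3.07 in place of 2.20 for Trl. The numbers of rows beyond these bounds and the median ratio therefore depend on the scaling. The 8 rows high in T1 were those of tj, CG17715, RpL10Ab, CG7564, CG44774, CG12717, Myc and Thd1. In the median row of the 8, 89.2% of UTR plus exon counts in T1 lay in the 3' UTR, against 40.8% for the median of all 482 rows. The 8 were chosen on the T1 counts that also enter this share, so the choice itself raises it and the value is a description. In the 94 rows high in T3, chosen likewise on the T3 counts, the median 3' UTR share in T3 was 42.6%, against 46% for all rows.

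The 3' UTR of tj (gene 2L:19464267-19467758), a transcription factor of somatic gonad cells, had 360, 161 and 95 counts in T1, T2 and T3, or 98.0, 43.6 and 20.6 CPM. Its T1 to T3 ratio was 4.76 (95% exact interval 3.78 to 6.03). The exons of tj had 1, 3 and 1 counts in the same libraries, so the 3' UTR held 99.7%, 98.2% and 99.0% of the gene's counts. Reads of tj thus lay almost wholly in its 3' UTR at every testis point, and most of them were in T1. In wild-type sperm the row had 0, 1 and 0 counts, in the IP 7, 7, 3 and 0, and in seminal vesicle total RNA 2 and 1.

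**Figure D2:**
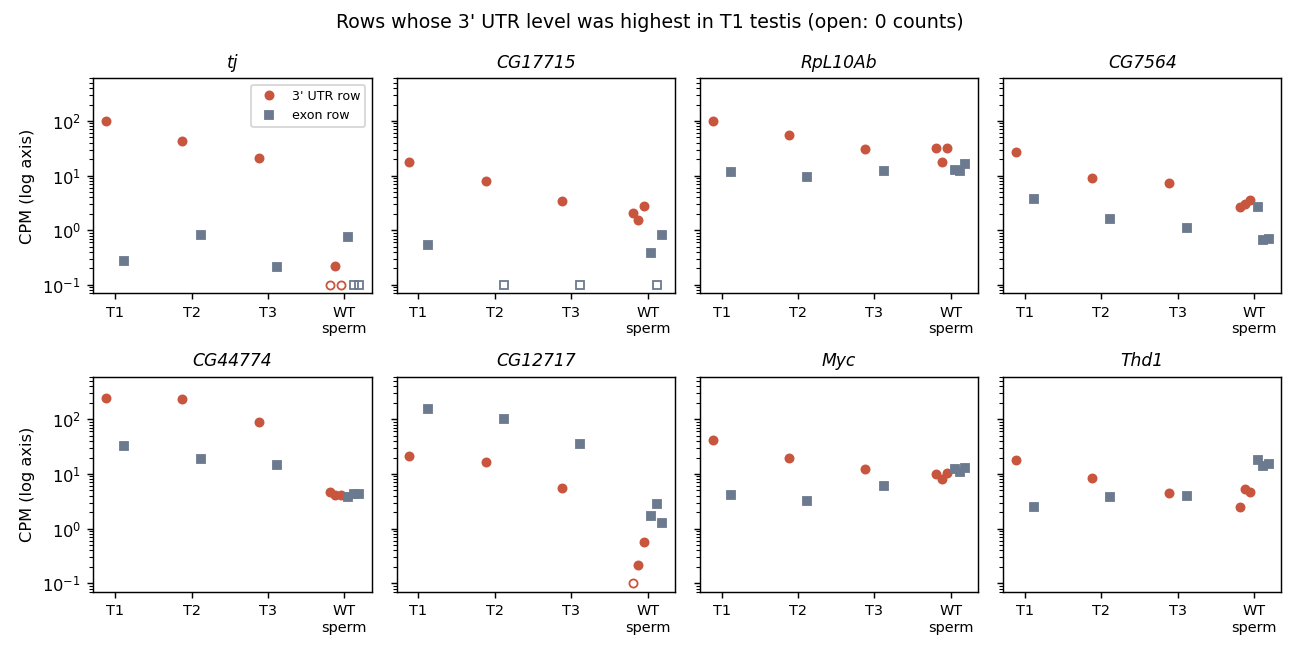
TMM-scaled CPM (log axis) of the 8 genes whose 3' UTR rows were high in T1. Each panel shows testis T1, T2 and T3, with 1 library each, and wild-type sperm, with 3 libraries. Circles are the 3' UTR row, squares the exon row, and open symbols stand for 0 counts; the 3' UTR of tj runs from 98.0 to 20.6 CPM over exons at 1 to 3 counts.

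The other T1-high rows differed in what their exons showed. RpL10Ab (gene 3L:11822851-11824211, whose span overlaps a small nucleolar RNA and CG32095) had 363, 206 and 144 counts in its 3' UTR, a T1 to T3 ratio of 3.16 (2.60 to 3.87). Its exons had 42, 35 and 56 counts, a ratio of 0.94 (0.62 to 1.43), so the intervals of UTR and exon do not meet. Myc (gene X:3373159-3391697, overlapping CG12535 and a long noncoding RNA), the growth-promoting transcription factor, had 152, 73 and 58 counts in its 3' UTR, a ratio of 3.29 (2.42 to 4.53). The exons of Myc had 15, 12 and 28 counts, a ratio of 0.67 (0.33 to 1.30). Thd1, a DNA glycosylase, had 65, 31 and 21 counts in its 3' UTR (ratio 3.89, 2.34 to 6.69) over 9, 14 and 18 in its exons. On the TMM scale the 3' UTR reads of RpL10Ab, Myc and Thd1 were highest in T1. Their exon ratios were lower, with intervals that span equal levels in T1 and T3 (Thd1 0.63, 0.25 to 1.47). With total sense counts as library size, UTR and exon ratios rise by the same factor (the 3' UTR of RpL10Ab to 4.41). The direction of an exon ratio near equality therefore depends on the scaling.

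CG17715 (gene 2L:22844220-22854541) had 66, 29 and 16 counts in its 3' UTR, a ratio of 5.18 (2.96 to 9.58), over 2, 0 and 0 in its exons. CG7564 (gene 3L:17514298-17524740) had 100, 33 and 34 counts (ratio 3.69, 2.48 to 5.62) over 14, 6 and 5. CG44774 (gene X:4926664-4938105) had 918, 856 and 416 counts (ratio 2.77, 2.46 to 3.12) over 117, 70 and 68 in its exons (ratio 2.16, 1.59 to 2.96). Its span overlaps the hairpin RNA locus hpRNA:CR46342, and the table does not show whether reads of the hairpin are among its counts. CG12717 is unlike the rest, since its exons carried most of its reads: 558, 380 and 166 counts in exons (ratio 4.22) against 77, 61 and 25 in the 3' UTR (ratio 3.87, 2.43 to 6.34), a 3' UTR share of 12.1% in T1. The row of Trl (gene 3L:14747929-14761049, overlapping CG42507 and Tsen34) had 786, 980 and 448 counts, a ratio of 2.20 (1.96 to 2.48) whose lower bound lies just under 2.

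Markers of the somatic cyst and hub cells, a list of 6 genes that includes tj, summed in their 3' UTRs to 381, 203 and 104 per 1000000 counts outside rRNA in T1, T2 and T3, and in their exons to 34.2, 45.3 and 68.9. That fall is tj alone, at 373, 182 and 80.8 per 1000000; the other 5 markers summed to 8.29, 20.4 and 23.0, from 8, 18 and 27 counts, and were lowest in T1. Exons of 7 germ line stem cell and spermatogonial genes summed to 427, 365 and 131. The part of these cells in the T1 rows was not tested. The rows high in T3 were genes of other roles. CG18628 had 20, 250 and 1946 counts in T1, T2 and T3, a T3 to T1 ratio of 77.5 (50.1 to 127), and its exons had 46, 456 and 4957. MtnA had 9, 75 and 608 counts (ratio 53.8, 28.2 to 118), and Arc1 had 165, 388 and 1238 (ratio 5.98). Of the sperm tail genes, Mst84Db had 780, 1199 and 2392 counts (ratio 2.44).

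Wild-type sperm was set against the mean of the 3 testis points to ask which 3' UTR reads persist in sperm. With edgeR's quasi-likelihood test and Benjamini-Hochberg adjustment, 1700 of 3136 tested 3' UTR rows were called at an adjusted p below 0.05, 1060 higher and 640 lower in sperm (33.8% and 20.4% of the tested 3' UTR rows). Of all sense and antisense rows tested, 57.1% were called, 26.4% higher and 30.7% lower, so a call is the common outcome here. Each testis point has 1 library, so the spread came from sperm alone; with T1, T2 and T3 treated as replicates of 1 group 931 rows were called, with DESeq2 731 (285 higher, 446 lower), and 527 (237 higher, 290 lower) under all 3 fits. The median 3' UTR row was higher in sperm by 0.86 (log2). Scaled to microRNA counts in place of TMM, the median was 2.63 and the calls were 2197 higher and 342 lower, so directions near 0 depend on the scaling. MicroRNA rows themselves had a median of -1.98 on the TMM scale, so scaling to them raises values in sperm.

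Transcripts of the spermatid list had far fewer 3' UTR reads in sperm than in testis. Among all tested 3' UTR rows 20.4% were called lower in sperm. Of 37 listed genes 34 have a 3' UTR row, 16 were tested, and all 16 tested rows fell, with a median log2 fold change of -5.79, or -4.63 with the 3 rows that had 0 sperm counts set at their bound. Mst84Db had 780, 1199 and 2392 testis counts and 9, 19 and 11 in sperm (log2 fold change -7.15, SE 0.69, edgeR adjusted p 2e-05). betaTub85D, the testis tubulin, had 49, 53 and 58 against 1, 0 and 5 (-5.34, SE 0.62). bol, which controls entry into the meiotic divisions, had 89, 98 and 92 against 9, 16 and 30 (-3.01, SE 0.42). Mst84Dd had 351, 449 and 599 testis counts and 0, 1 and 1 in sperm, and CG12853 had 121, 169 and 201 against 0, 0 and 1. In each of these 5 genes every testis library lay above every sperm library, and the exon row also fell. Sperm and testis libraries did not overlap in 59.2% of all tested 3' UTR rows, so a lack of overlap is the common outcome. Cdlc2, a dynein light chain, had 27, 38 and 68 testis counts and 0 in all sperm libraries, at least 20.7-fold lower in sperm against 3 counts per library.

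Among the lists, seminal fluid and muscle rows were mostly higher in sperm, where 33.8% of all tested 3' UTR rows were. Of 8 tested seminal fluid rows 7 rose, with a median of 6.56, or 2.41 with the 7 rows that had 0 testis counts at their bound. Acp98AB had 0 counts at each testis point and 115, 63 and 50 in sperm, at least 18.0-fold higher, and Acp33A had 0 against 137, 47 and 30, at least 17.3-fold higher. Muscle rows rose in 11 of 13 (median 3.17), among them Act57B, an actin, with 4, 8 and 26 testis counts and 185, 281 and 743 in sperm (4.66, SE 0.53, edgeR adjusted p 3.7e-05). The muscle myosin Mhc had 7, 18 and 28 against 159, 128 and 403 (3.17, SE 0.43). CG18628 rose by 6.17 (SE 0.73), CG11034 by 5.15 (SE 0.52) and CG42521 by 7.87 (SE 0.69). CG42521 (gene 3L:10623066-10623576) had 0, 1 and 29 counts in T1, T2 and T3 and 311, 474 and 775 in sperm. Ribosomal protein rows rose in 25 of 73 and fell in 1, RpS5b, with a median of 0.85 that is close to that of all rows.

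Of the 8 rows high in T1, 7 were lower in sperm and none higher, with a median of -1.91. They were chosen for their T1 level, and T1 is 1 of the 3 testis libraries averaged here, so that choice itself lowers their values in sperm against testis and the count is a description. For tj the 616 testis counts stood against 1 in sperm, a ratio of 957 (95% interval 171 to 37845, counting error only; edgeR adjusted p 1.9e-05). CG44774 had 25, 19 and 36 counts in sperm (-5.32, SE 0.52, adjusted p 2e-05), CG12717 had 0, 1 and 5 (-5.22, SE 0.63), CG17715 had 11, 7 and 24 (-1.85, SE 0.42) and CG7564 had 14, 14 and 31 (-1.96, SE 0.38). Myc (-1.19, SE 0.36, adjusted p 0.016) and Thd1 (-1.10, SE 0.41, adjusted p 0.04) were also called. Myc lost the call without T1, sperm library 2 or sperm library 3 (adjusted p up to 0.074), and Thd1 without T1 or any sperm library (up to 0.19); scaled to microRNA, Myc was 0.41 and Thd1 0.64, both reversed. With DESeq2 neither was called (adjusted p 0.064 and 0.21), and with T1, T2 and T3 as 1 group Thd1 was not (0.055). RpL10Ab was not called (-1.04, adjusted p 0.057; 0.50 when scaled to microRNA). Of the 94 rows high in T3, chosen on the same testis libraries, 59 were higher and 6 lower in sperm, with a median of 1.46.

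Of the 8 genes listed as candidate genic piRNA sources, 7 were tested between sperm and testis. Of these 2 rose and 2 fell, with a median of 0.31 against 0.86 for all 3' UTR rows. Among all tested 3' UTR rows 33.8% were called higher and 20.4% lower, so calls in such numbers are common here and do not set the list apart. tj fell as given above. chinmo, a transcription factor of cyst stem cells, had 22, 17 and 23 testis counts and 1, 1 and 2 in sperm (-4.44, SE 0.60, edgeR adjusted p 1e-04), and its exons fell too. Fas3, an adhesion protein of the hub, had 3, 6 and 19 against 28, 47 and 36 (1.85, SE 0.52, adjusted p 0.01), and jim, a zinc finger protein, had 16, 11 and 10 against 30, 38 and 72 (1.28, SE 0.41, adjusted p 0.02). Fas3 lost the call without T1 or sperm library 2 (up to 0.12) and with DESeq2 (0.18), and jim without T3, sperm library 2 or sperm library 3 (up to 0.067) and with DESeq2 (0.34). brat, a translational repressor, had 39, 28 and 22 against 11, 30 and 40, kay 15, 10 and 23 against 36, 18 and 31, and klar 2, 3 and 7 against 15, 10 and 17, none of them called. Mkp3, with 1 or 2 counts at each testis point, was not tested. The 3' UTR of tj stood apart in this list by its share: it was the only listed row whose 3' UTR held over 90% of the gene's counts at T1, T2 and T3.

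Testing the change of the 3' UTR row against the change of the exon row of the same gene asked which 3' UTRs moved apart from their messenger. The 3' UTR and exon rows mostly moved together: of 1487 called 3' UTR rows with a tested exon row, the exon row was called in the same direction in 1224 and in the opposite one in 7. edgeR's test of row usage called 1 of 2716 genes (0.0368%), tkv, a receptor of the BMP ligand Dpp; without T1 or without sperm library 2 it called none, without T3 2 and without sperm library 1 29. A limma test of the within-library log2 ratio of UTR to exon counts, chosen after the data were seen, called 15 genes (0.552%). The 3' UTR of tkv had 2, 6 and 2 counts in testis and 93, 111 and 124 in sperm (4.62, SE 0.49), whereas its exons had 181, 182 and 86 against 171, 160 and 182 (-0.28, adjusted p 0.56). The ratio of UTR to exon was higher in sperm by 4.72 (log2, SE 0.36, limma adjusted p 0.00058). The span of tkv (2L:5219000-5271384) overlaps 8 other genes, so part of its exon reads may belong to them. ps, a splicing regulator, rose in its 3' UTR (21, 19 and 45 against 281, 236 and 497; 3.02, SE 0.41) and not in its exons (0.49, adjusted p 0.28).

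On the TMM scale, Myc was lower in its 3' UTR and higher in its exons (15, 12 and 28 against 66, 51 and 111; 1.48, SE 0.37, edgeR adjusted p 0.0058). Thd1 had the same pattern, with exon counts of 9, 14 and 18 against 96, 64 and 135 (2.25, SE 0.38, adjusted p 0.00053). CG33523 had 51, 73 and 75 3' UTR counts in testis and 25, 29 and 59 in sperm (-1.46, SE 0.37; 0.21 when scaled to microRNA, as Myc and Thd1 also turned positive), over 0, 3 and 1 exon counts in testis and 10, 11 and 30 in sperm. CG44774 fell by 5.32 in its 3' UTR and by 2.31 in its exons. CG40191, CG7739, Abl, scpr-C, Mst84Dd and Bacc were the other genes whose 3' UTR to exon ratio was lower in sperm, and spir, Pif1A and Syp those where it was higher. Pif1A reached its call through its exons (-2.68, SE 0.55), its 3' UTR having a log2 fold change of 0.38 (adjusted p 0.44).

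**Figure D3:**
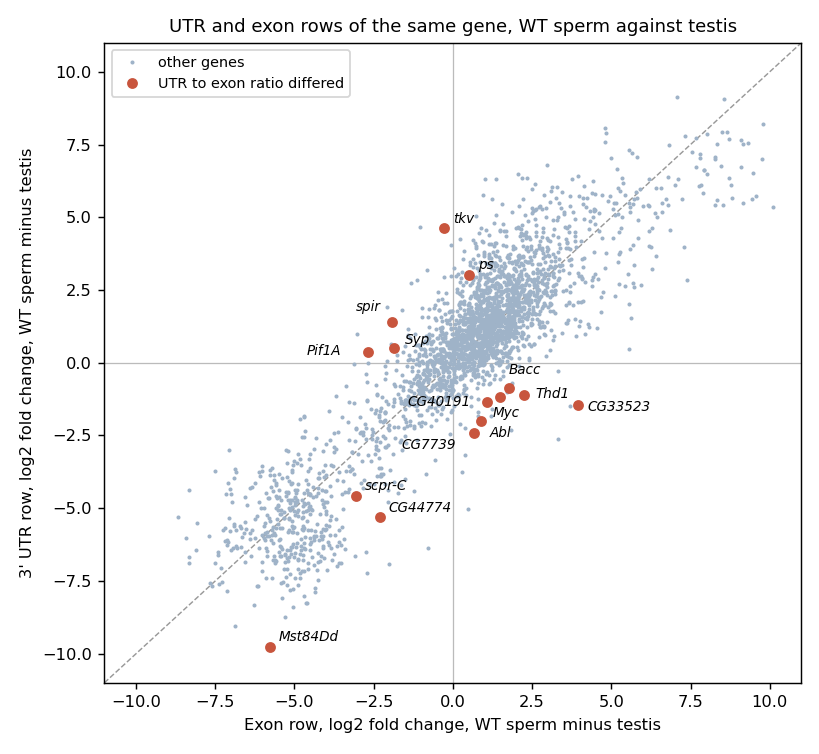
Log2 fold change of wild-type sperm over the averaged testis points, with the exon row on the x axis and the 3' UTR row of the same gene on the y axis. Each point is 1 gene, the dashed line marks equal change, and the 15 labelled genes in red passed the limma test of the UTR to exon ratio; most genes lie along the line, while tkv sits far above it (4.62 against -0.28).

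PIWI immunoprecipitates and total RNA of the seminal vesicle were compared to ask which 3' UTRs give small RNA bound by PIWI. Of 4009 tested 3' UTR rows 616 were called, 234 higher and 382 lower in the IP (5.84% and 9.53% of the rows). Over all rows tested, 18.4% were called, 8.41% higher and 10% lower; the share of 3' UTR rows called higher was therefore below that of the table as a whole. The median 3' UTR row lay at -0.02 on the log2 scale, while medians were 0.99 for sense rows of the table's piRNA class, 1.49 for complex repeats, -0.06 for exons, -2.22 for tRNA and -2.78 for snoRNA. Scaled to microRNA, the median 3' UTR row was 0.67 and the calls were 745 higher and 131 lower. MicroRNA rows themselves had a median of -0.89 on the TMM scale, so scaling to them raises values in the IP. Changes below are relative to the TMM scale. Leaving out total RNA library 1 or 2 left 249 or 202 calls and leaving out IP library 3 left 409, so the count rests in large part on the 2 total RNA libraries.

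Rows of translation and muscle genes were depleted in the IP, where 9.53% of all tested 3' UTR rows were called lower. Of 92 cytosolic ribosomal protein rows 80 were tested, and 75 fell, with a range over the 80 of -3.49 (RpL15) to -0.63 (RpL17) and a median of -1.81. Their exon rows had a median of -1.67. RpS16 (gene 2R:22605745-22607995, which hosts 5 overlapping small nucleolar RNAs) had 47, 83, 59 and 7 counts in the IP and 139 and 143 in total RNA (-3.18, SE 0.28, edgeR adjusted p 4e-06). RpLP1 had 784, 1140, 805 and 177 against 684 and 957 (-1.73, SE 0.21). RpL10Ab, whose 3' UTR was high in T1, fell here too, with 471, 607, 332 and 68 against 312 and 413 (-1.58, SE 0.26, adjusted p 0.00075). Of 8 translation elongation and mRNA-binding genes 4 fell (median -1.01), among them eEF1alpha1 (-1.41, SE 0.22). Muscle rows fell in 10 of 13 (median -1.32), with Act57B at 281, 615, 356 and 85 against 481 and 506 (-2.17, SE 0.23, adjusted p 1.9e-05). Scaled to microRNA the calls of eEF1alpha1 and of the myosin Mhc were lost (adjusted p 0.092 and 0.16).

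Among the rows with the most reads in wild-type sperm, CG18628, CG42521 and Arc1 were lower in the IP than in total RNA. Even so, CG18628, Vha16-1 and Arc1 were the leading 3' UTR rows of the IP, with 1.72%, 1.32% and 1.00% of its 3' UTR counts. CG18628 had 3443, 7426, 6515 and 1032 counts in the IP and 5083 and 8415 in total RNA (-2.13, SE 0.24, edgeR adjusted p 2.7e-05), and CG42521 had 307, 485, 359 and 51 against 339 and 443 (-2.02, SE 0.24, adjusted p 5.6e-05). The exon rows had log2 fold changes closer to 0, -1.37 and -0.84. Arc1 fell by 1.18 (SE 0.23, adjusted p 0.0024; 0.062 without total RNA library 2). CG32320 fell in a 3' UTR whose exons were hardly read, with 41, 48, 28 and 4 counts against 130 and 94 in its 3' UTR (-3.54, SE 0.35, adjusted p 1e-05) and 11, 13, 3 and 0 against 0 and 0 in its exons. Its span (3L:1398586-1401612) overlaps Ptp61F and a tRNA gene. CG7714, with 2, 0, 1 and 0 counts against 12 and 14, CG4830 (-4.62, SE 0.64), Pebp1 (11, 9, 4 and 4 against 22 and 77; -4.15, SE 0.51) and CG11911 (-4.12, SE 0.55) were among the largest falls.

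Rows of the spermatid list, which also holds genes of meiosis such as bol, were on the other side. Of 14 tested rows 4 rose and none fell, with a median of 1.41, and their exon rows rose in 7 of 28. For comparison, 5.84% of all tested 3' UTR rows and 8.41% of all tested rows were called higher. bol had 235, 413, 550 and 94 counts in the IP and 29 and 33 in total RNA (1.86, SE 0.33, edgeR adjusted p 0.0013), and this call held without any library. w-cup, transcribed after meiosis, had 113, 183, 242 and 41 against 13 and 9 (2.17, SE 0.41, adjusted p 0.0021), Mst84Da 46, 54, 81 and 19 against 4 and 5 (2.03, SE 0.54, 0.017), and Mst98Ca 93, 150, 129 and 12 against 12 and 8 (1.57, SE 0.45, 0.027). Without total RNA library 2 these 3 lost their calls (adjusted p up to 0.057, 0.14 and 0.29), the last also without IP library 2 or 3, and Mst84Da also without IP library 3 or total RNA library 1. Summed over the list, spermatid 3' UTR rows gave 225 to 361 per 1000000 counts outside rRNA in the IP and 62 to 83.3 in total RNA. Muscle rows gave 355 to 609 against 734 to 828, and seminal fluid rows 69.4 to 116 against 56.7 to 58.9. On the TMM scale the tested seminal fluid rows overlapped, at 12.8 to 18.4 CPM in the IP and 15.4 to 18.3 in total RNA. The part of a differing mix of sperm, germ line remnants and organ wall in the IP and total RNA samples was not tested.

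Among rows with few or no counts in total RNA, luna, a zinc finger transcription factor, had 41, 44, 48 and 9 counts in the IP and 0 in both total RNA libraries, at least 4.05-fold higher. Or59b, an odorant receptor, had 30, 50, 23 and 11 against 0 and 0, at least 3.45-fold higher. CG33125 had 32, 38, 58 and 11 against 1 and 0, a ratio of 24.0 (4.24 to 955, counting error only; edgeR adjusted p 0.0046, 0.082 without total RNA library 2). CG31016, CG30275, CG2267 and CG42855 had the same 1 and 0 counts in total RNA and ratios of 19 to 21.4, and none kept its call without total RNA library 2. Among abundant rows, ps had 1219, 1742, 1677 and 379 against 173 and 299 (0.95, SE 0.24, adjusted p 0.014; exons 0.40). Myc had 599, 855, 950 and 226 against 105 and 146 (0.95, SE 0.27, adjusted p 0.023), a call lost without IP library 3 or either total RNA library (up to 0.12). Vha68-2, a proton pump subunit, rose in its 3' UTR (0.86, SE 0.28, adjusted p 0.045) and fell in its exons (-0.82, SE 0.23, adjusted p 0.025). It was the only gene called in opposite directions by both rows, and its 3' UTR call was lost with DESeq2 (0.07) and without IP library 2 or 3 or either total RNA library (up to 0.21).

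**Figure D4:**
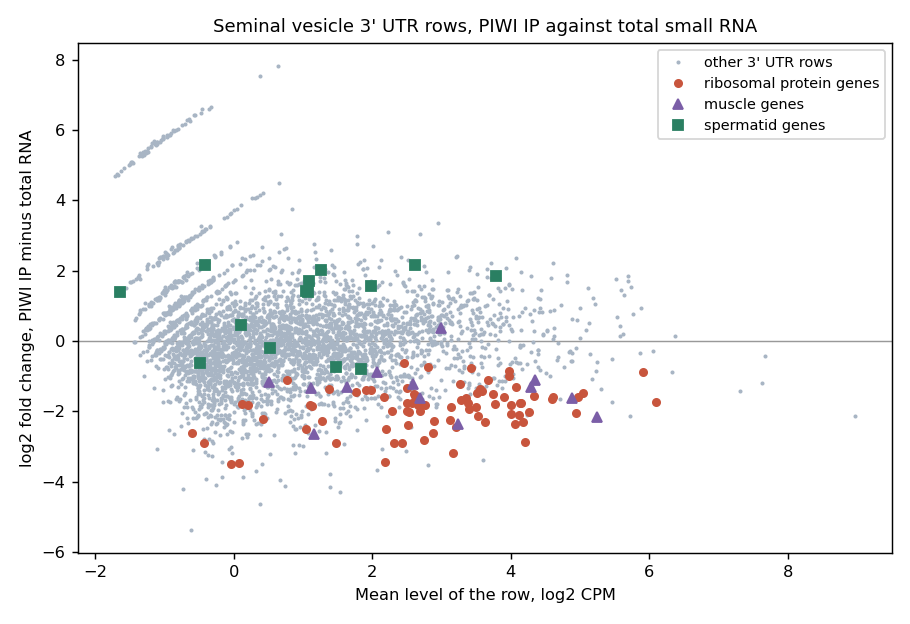
Mean log2 CPM (x axis) and log2 fold change of PIWI IP over total RNA of the seminal vesicle (y axis) for the 4009 tested 3' UTR rows, each a point. Circles mark ribosomal protein genes, triangles muscle genes and squares spermatid genes; the ribosomal rows lie between -3.49 and -0.63 and the median spermatid row lies at 1.41.

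Of the 7 tested rows of candidate genic sources none was called higher in the IP. At the 5.84% called higher among all tested 3' UTR rows, 7 rows would hold few calls or none. Whether the summed level of the candidates was higher in the IP depended on the scale. On the TMM scale the 7 rows summed to 25.9, 27, 29.7 and 43.6 CPM in the IP libraries and to 30.9 and 30.6 in total RNA. Summed over the 8 genes, their 3' UTR rows gave 133, 131, 168 and 255 per 1000000 counts outside rRNA in the IP libraries and 89.1 and 92.8 in total RNA, so that every IP library lay above both of total RNA; their exons gave 217 to 278 against 82.7 and 102. The IP library with the highest sum is the shallowest. By single rows, chinmo fell, with 70, 133, 106 and 19 counts in the IP and 87 and 69 in total RNA (-1.55, SE 0.28, edgeR adjusted p 0.0016; 0.13 without total RNA library 1 and 0.078 when scaled to microRNA). The list's median log2 fold change was 0.38, against -0.02 for all tested 3' UTR rows. klar had 48, 69, 55 and 28 against 5 and 13 (1.17, adjusted p 0.13), jim 106, 202, 128 and 55 against 19 and 35 (0.81, adjusted p 0.12), brat 91, 139, 142 and 31 against 16 and 45 (0.29), and Fas3 60, 108, 82 and 48 against 16 and 35 (0.31). In jim the exon row passed the test (1.72, adjusted p 0.026). tj had too few counts to be tested. Of the T1-high rows, CG17715 (0.51), CG7564 (0.59) and CG44774 (-0.01; 333, 628, 481 and 85 against 108 and 148) were not called. No gene of 3628 was called by edgeR's test of 3' UTR against exon (0% of the genes, 107 at an unadjusted p below 0.05) and none by the limma ratio test (297 unadjusted). Of 576 called 3' UTR rows with a tested exon row, 354 had the exon row called in the same direction.

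The sperm genotypes were compared to ask which 3' UTR reads differ in piwi or aub mutants. The labels give no allele or strain, so the mutation and the genetic background cannot be told apart. piwi mutant and wild-type sperm differed in 13 of 2656 tested 3' UTR rows by edgeR's test, 4 higher and 9 lower in the mutant, against 0.898% called among all rows; 272 rows had an unadjusted p below 0.05. aub mutant and wild-type sperm differed in 29, 18 higher and 11 lower (0.678% and 0.414% of the tested 3' UTR rows), against 0.907% higher and 0.935% lower, 1.84% in all, among all rows (355 unadjusted). The mutants differed from each other in 10, 7 higher and 3 lower in aub, against 0.518% (220 unadjusted). These 3 comparisons share libraries in pairs, so each is given with its own values. The counts depend on single libraries: leaving 1 out gave 6 (piwi library 2), 7 (wild-type library 2), 8 (piwi library 1) or 21 (wild-type library 1) calls in place of 13, and 2, 3, 8 or 11 in place of 29 without aub library 3, aub library 2, wild-type library 2 or wild-type library 3. In place of 10 it gave 3, 2 and 2 without aub library 1, 2 and 3, and 4 and 2 without piwi library 1 and 2. Scaled to microRNA the calls were 5 higher and 20 lower for piwi, 54 and 6 for aub, and 119 and 1 between them. On the TMM scale the microRNA rows themselves had medians of 0.26, -0.57 and -0.85 in these comparisons. CPM values below are TMM-scaled over the 9 sperm libraries.

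CG42521 gave the clearest change of a 3' UTR alone. Its 3' UTR row had 311, 474 and 775 counts in wild-type sperm, 15, 34 and 5 in piwi mutant sperm and 706, 918 and 1054 in aub mutant sperm, or 95.9 ± 31.7, 2.40 ± 1.15 and 92.2 ± 13.3 CPM (SD, n = 3 each). All piwi mutant libraries lay far below all others, and the wild-type and aub libraries overlapped. The log2 fold change was -5.26 (SE 0.41, edgeR adjusted p 7.4e-05) in piwi mutants, -0.06 (adjusted p 0.97) in aub mutants and 5.20 (SE 0.41, adjusted p 8.1e-05) between aub and piwi mutants. The exons of the same gene had 914, 452 and 1218 counts in wild type, 1279, 1848 and 280 in piwi and 1237, 1187 and 2065 in aub mutants, with a log2 fold change of 0.07 (adjusted p 0.98) in piwi mutants. The 3' UTR share of the gene's counts was 38.5% ± 12.9 in wild-type, 1.57% ± 0.360 in piwi and 37.9% ± 5.10 in aub mutant sperm (SD, n = 3 each). edgeR's test of row usage called CG42521 and no other gene of 2404 in piwi mutants (0.0416%, adjusted p 2.2e-05), and the same gene alone between aub and piwi mutants (0.0416%). The limma ratio test added Dg, the gene of dystroglycan, and no other (0.0832%), whose 3' UTR row was not itself called (1.31, adjusted p 0.25). The 3' UTR calls of CG42521 held without any 1 library.

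CG11034 (gene 2L:5805395-5809063) fell in its 3' UTR and its exons. The 3' UTR had 451, 354 and 701 counts in wild type, 25, 41 and 43 in piwi and 298, 459 and 462 in aub mutants, or 91.8 ± 5.01, 6.01 ± 2.88 and 41.7 ± 5.82 CPM (SD, n = 3 each). It was the reverse of CG42521 in its exons, which had 29, 18 and 60, then 3, 2 and 2, then 18, 35 and 36 counts (-4.05, SE 0.47, edgeR adjusted p 0.0012, in piwi mutants). The 3' UTR log2 fold change was -3.96 (SE 0.33, adjusted p 9.6e-05) in piwi mutants and -1.14 (adjusted p 0.068) in aub mutants, which did not pass, and 2.82 (SE 0.32, adjusted p 0.0016) between aub and piwi mutants. Its libraries did not overlap between any pair of genotypes. Pair by pair, 15.2% (piwi and wild type), 19.2% (aub and wild type) and 15.8% (the mutants) of tested 3' UTR rows did not overlap.

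beat-VII, a cell-surface protein of the immunoglobulin superfamily (gene 3R:26645282-26681966, overlapping Tb), was read in wild type and hardly in either mutant. Its 3' UTR had 32, 42 and 82 counts in wild type, 1, 2 and 0 in piwi and 0, 0 and 4 in aub mutants (edgeR adjusted p 0.0019 and 0.00099). Its exons had 30, 12 and 33, then 0, 3 and 0, then 0, 0 and 0. The ratio of wild type to piwi mutants in the 3' UTR was 63.9 (21.5 to 313, counting error only). Both 3' UTR calls held without any 1 library.

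Adgf-A, an adenosine deaminase (gene 3L:17751731-17764158, overlapping Adgf-A2, CG32182 and CG32181), was low in both mutants and separated its 3' UTR from its exons in aub. The 3' UTR had 23, 36 and 88 counts in wild type, 6, 20 and 5 in piwi and 3, 5 and 4 in aub mutants, or 8.43 ± 3.21, 1.37 ± 0.422 and 0.409 ± 0.0516 CPM (SD, n = 3 each). Its fall was -2.54 (SE 0.39, edgeR adjusted p 0.007; 0.051 without wild-type library 3) in piwi and -4.31 (SE 0.43, adjusted p 0.00056) in aub mutants. The exons had 90, 177 and 391, then 40, 67 and 24, then 127, 174 and 101 counts, a change of -2.57 in piwi and -1.46 (SE 0.34, adjusted p 0.045) in aub mutants. It was the 1 gene of 2404 called by edgeR's test of row usage in aub mutants (0.0416%, adjusted p 0.0385). That call was lost without any 1 aub library and without wild-type library 2 or 3, with limma's test of row usage and with replicate number as a block, and it was made with the limma ratio test (-2.77, SE 0.46, adjusted p 0.0049), which also called Dg (1.97, adjusted p 0.0141; 0.0832% of genes).

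**Figure D5:**
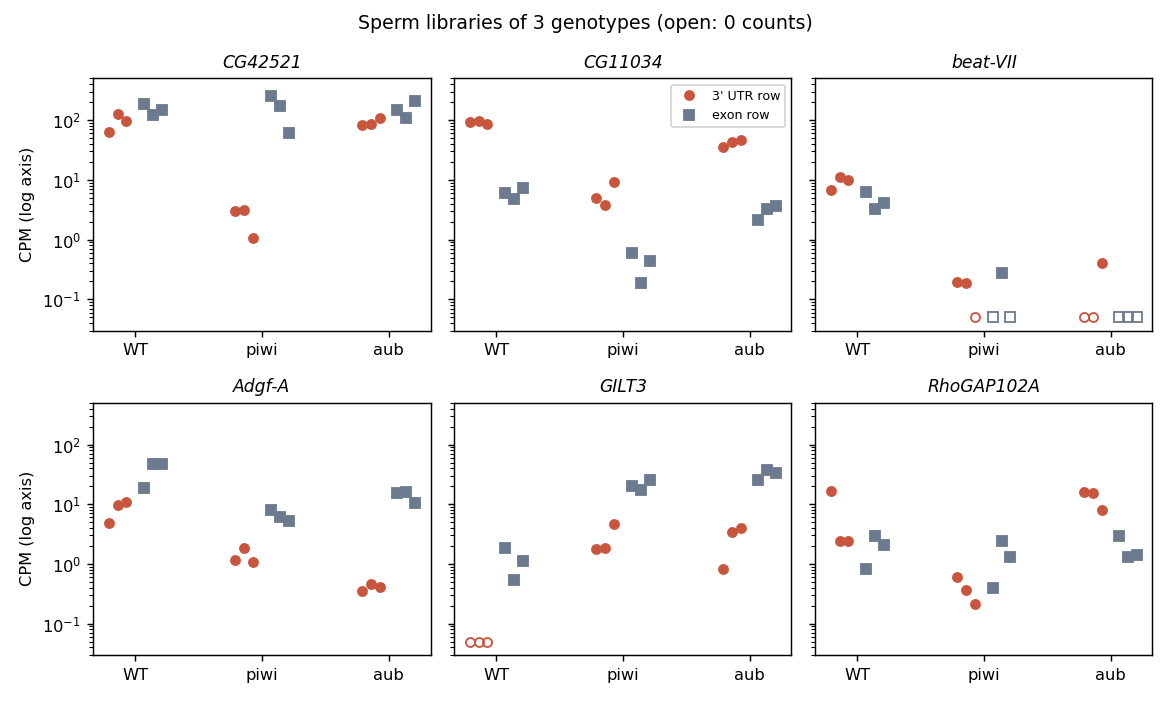
TMM-scaled CPM (log axis) of 6 genes in wild-type, piwi mutant and aub mutant sperm, with 1 point per library; circles are the 3' UTR row, squares the exon row, and open symbols stand for 0 counts. In CG42521 the circles drop from 95.9 to 2.40 CPM in piwi mutants while the squares stay, and in CG11034 both drop.

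The other rows that fell in piwi mutants were Rab32, CG10097, CG2233, CG11889 and Gbs-70E. Rab32, a vesicle-traffic GTPase (overlapping a long noncoding RNA), had 14, 48 and 102 counts in wild type, 6, 9 and 2 in piwi and 15, 21 and 18 in aub mutants (-3.49, SE 0.54, edgeR adjusted p 0.0088, and -2.34, SE 0.46, adjusted p 0.028). CG10097 had 33, 30 and 54, then 8, 2 and 3, then 17, 14 and 19 (-3.33 and -2.03, adjusted p 0.0087 and 0.034), and CG2233 had 16, 40 and 92, then 5, 13 and 7, then 14, 6 and 8 (-2.78 and -3.09, adjusted p 0.021 and 0.0093). Rab32, CG10097, CG2233, beat-VII and Adgf-A were thus lower in both comparisons with the shared wild-type libraries. CG11889 (-3.07) and Gbs-70E (-1.94) were called in piwi mutants. Of these 5 rows only CG10097 in piwi mutants kept its call without every library: Rab32 lost it without piwi library 2 (0.066), CG11889 without piwi library 2 or 3 (up to 0.10), and CG2233 and Gbs-70E without any of piwi libraries 1 to 3 or wild-type library 2 or 3 (up to 0.11 and 0.16). In aub mutants Rab32 and CG10097 lost it without any aub library or wild-type library 2 or 3 (up to 0.13 and 0.16), and CG2233 without aub library 2 or 3 (up to 0.064).

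GILT3, a lysosomal thiol reductase (gene 3R:23677358-23678421), went the other way in both mutants. Its 3' UTR had 0 counts in every wild-type library, 9, 20 and 22 in piwi and 7, 37 and 39 in aub mutants, at least 4.65-fold and 4.57-fold higher against 3 counts per library. Its exons had 9, 2 and 9, then 102, 186 and 119, then 217, 413 and 327 counts (4.11 and 4.74, edgeR adjusted p 9.6e-05 and 5.2e-05). The 3' UTR call was lost without each of the 6 libraries in turn in piwi mutants (adjusted p up to 0.13), and in aub mutants without aub library 2 or 3 or any wild-type library (up to 0.096). CG32694 (1.76, adjusted p 0.02) and Idgf4, a growth factor (1.20, adjusted p 0.03), were also called higher in piwi mutants. Each lost its call without several libraries (up to 0.097 and 0.13), among them wild-type library 2 and piwi library 2 in both.

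In aub mutants the rows called higher had mostly low counts in wild type. scpr-A had 0, 3 and 0 counts in wild type and 23, 111 and 90 in aub mutants, Rcd6 had 0, 0 and 0 against 6, 37 and 25 (at least 3.71-fold higher), and cv-2, mesh and CG34423 had 1 count over the wild-type libraries against 71 to 82 over the aub libraries. Among rows with more reads, Arc1 had 806, 853 and 1670 counts in wild type and 4676, 6426 and 4879 in aub mutants, or 201 ± 31.6 and 550 ± 48.0 CPM (SD, n = 3 each), with 350 ± 92.2 in piwi mutants. It rose by 1.45 (SE 0.30, edgeR adjusted p 0.03), and its exons by 1.24 (adjusted p 0.036). vir-1, which is induced by virus infection, had 28, 47 and 78 against 224, 331 and 409 (1.82, SE 0.33, adjusted p 0.016). eIF4EHP, a translational repressor that binds the messenger cap, had 12, 12 and 16 against 60, 80 and 60 in its 3' UTR (1.46, SE 0.28, adjusted p 0.022) and at most 14 counts in its exons in any sperm library. TwdlT (2.25), CG1124 (2.39), CG14933 (1.86), EbpIII of the ejaculatory bulb (1.74), emp (1.55) and Hil were called higher as well. None of these 14 calls held in every fit that left out 1 library: all were lost without aub library 2 or 3 and without at least 1 wild-type library, and Arc1 and Hil also without aub library 1 (up to 0.13 for Arc1, 0.086 for vir-1, 0.11 for eIF4EHP and 0.20 for the other 11).

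Of the rows called lower in aub and not in piwi mutants, Ktl had 34, 16 and 27 counts in wild type and 1, 5 and 1 in aub mutants (-4.25, SE 0.65, edgeR adjusted p 0.0065; 0.053 without aub library 3). CG42852 (-3.17, adjusted p 0.023), Col4a1, a basement membrane collagen (-2.59, adjusted p 0.029), AANAT1, which acetylates amines (-2.15, adjusted p 0.015), CG33143 (-2.29, adjusted p 0.03) and chrb, an inhibitor of growth signalling (-1.19, adjusted p 0.031), were called as well. Each of these 5 lost its call without aub library 2 or 3 and at least 1 wild-type library (up to 0.11, 0.13, 0.076, 0.13 and 0.14), and scaled to microRNA chrb was -0.65 (adjusted p 0.55). Between aub and piwi mutants, CG42521 and CG11034 aside, bnb (2.79), GstD10 (1.90), GstD9 (1.90) and path (1.44) were higher in aub mutants and CG4238 (-3.03), CG33143 (-2.73) and DIP-delta (-2.39) lower, and each lost its call without aub library 2 or piwi library 2 (up to 0.21, 0.24, 0.19, 0.24, 0.15, 0.095 and 0.12). Sytbeta, also higher, had 0, 1 and 0 counts in piwi and 24, 20 and 30 in aub mutants (adjusted p 0.027, up to 0.13 without a library). Its span overlaps 13 other genes.

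RhoGAP102A (gene 4:254997-265574) carried 3' UTR reads on both strands. The sense row had 79, 9 and 20 counts in wild type, 3, 4 and 1 in piwi and 132, 169 and 78 in aub mutants, and did not pass the test in piwi mutants (-4.11, edgeR adjusted p 0.12) or between the mutants (5.00, adjusted p 0.064). The antisense row had 178, 78 and 91, then 2, 1 and 2, then 409, 370 and 288 counts, and fell in piwi mutants by 6.40 (SE 0.61, adjusted p 0.00042). The exons had at most 26 counts in any sperm library. DESeq2, no count filter, the microRNA scale and a replicate block each called the sense row in piwi mutants.

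Of the 10 rows with the most reads in wild-type sperm, CG42521 and CG11034 were called in piwi mutants and between the mutants, and Arc1 in aub mutants, as given above; the other 7 passed no genotype test. CG18628 had 9957, 26246 and 35299 counts in wild type, 15550, 28033 and 24375 in piwi and 34641, 58878 and 40395 in aub mutants (edgeR adjusted p 0.88 in piwi mutants), and MtnA had 444, 1259 and 3341, then 1494, 4723 and 3230, then 1530, 3436 and 1135 (adjusted p 0.65). None of the 5 tested candidate genic sources was called in any of the 3 comparisons. Their counts in wild-type, piwi and aub mutant sperm were 28, 47 and 36, then 22, 80 and 56, then 60, 138 and 87 for Fas3, and 36, 18 and 31, then 17, 32 and 14, then 34, 40 and 34 for kay. The groups overlapped for Fas3 and kay, and likewise for jim (30 to 72, 32 to 84 and 41 to 54 counts) and brat (11 to 40, 21 to 31 and 33 to 40). tj had 0 to 5 counts in each sperm library of any genotype, so a loss of its 3' UTR reads in a mutant was not detectable at this depth. No row of the 76 ribosomal protein, 13 muscle, 7 seminal fluid and 4 spermatid genes tested was called in any genotype comparison either. Over all 2656 tested 3' UTR rows, only 13 (piwi), 29 (aub) and 10 (aub against piwi) were called. At that rate these lists, like the 5 candidate sources, would hold few calls or none.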

How the data were processed

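Small RNA reads were counted per annotated feature by the authors, who deposited a sense and an antisense table of raw read counts, without normalization. Per the labels' protocols, a NEBNext small RNA kit was used with 2S rRNA blocked, and immunoprecipitates came from ultraviolet-crosslinked dissected tissue. Per the submitters' processing notes, the tools were Subread 2.0.0 with featureCounts, the aligner Bowtie 1.2.3, Trim Galore 0.5.0 together with cutadapt, and SAMtools 1.8. The same notes name BDGP6 and dm6 as builds, and no settings are given. How reads with several positions were treated is not given in the sources used here, so near-identical and overlapping genes are uncertain. Molecular identifiers are not mentioned, so counting error is all that the intervals and floors describe.

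The 18 columns whose names match a sample were used; 3 more were not used. Planned testis groups of 2 libraries have 1 usable column each, and the third seminal vesicle total RNA sample is not analysed here. The seminal vesicle columns and the others were counted on feature lists that differ: 12386 and 11834 of the 3' UTR rows were counted in them, 11574 in both.

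The test was the robust quasi-likelihood fit of edgeR 4.0.16 under R 4.3.3, after filterByExpr and TMM scaling, with Benjamini-Hochberg adjustment over all sense and antisense rows tested and a threshold of 0.05. The 9 sperm libraries were fitted together, and so were the 6 of the seminal vesicle. Sperm was set against the averaged testis points, whose single libraries leave the spread to sperm; tested on simulated data, that design made a larger share of false calls among its calls than the adjusted threshold names. The 3' UTR row was tested against the exon row with edgeR's diffSpliceDGE and, chosen after seeing the data, with limma 3.58.1 on within-library log2 ratios of counts plus 0.5. Alternatives were DESeq2 1.42.0, no or a stricter filter (10 counts), scaling to microRNA counts, no rRNA rows, only the groups compared, replicate number as a block, and each library left out. Shares were compared by exact permutation tests, with T1, T2 and T3 taken as replicates of 1 testis group. Where a group had 0 counts, folds were set against 3 counts per library; with 1 to 3 counts, a ratio with its exact interval is given. Gene spans are those of the RefSeq table of the Release 6 assembly. No sequences were at hand for these rows.

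The members and the gene lists were chosen with earlier results of these data known. Named genes are the 10 rows with the most reads in each tissue, up to 10 called rows in each direction whose libraries do not overlap and whose higher group averages at least 10 counts, the genes with the smallest adjusted p in the test of 3' UTR against exon, the candidate genic sources, and list members that passed a test; 1 row that the rule names is not reported here. The following were chosen after their values were seen: CG17715, CG7564, CG12717, Myc and RpL10Ab (high in T1), CG33523, CG40191, Pif1A and Syp (called by the limma ratio test), EbpIII, chrb, eIF4EHP, emp and vir-1 (further calls in aub mutants), CG32320, and the ribosomal rows RpS16, RpL17 and RpS5b.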

Additional observations from a re-analysis of the deposited data

Results flagged for a closer look

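In the 4 immunoprecipitate libraries, 6 of 57 groups of values checked had 1 library far from the other 3, by the gap to its neighbour relative to the whole range; chance gives this in about 5% of such groups. All 6 were library 4, which is also the shallowest, with 2325192 sense counts. Its 3' UTR row was higher than in the others for Fas3 (9.69 CPM, others 3.28 to 3.82), klar (5.65, others 2.35 to 2.62), Mkp3 (2.42, others 0.977 to 1.12), CG17715 (4.64, others 1.63 to 1.87) and CG6470 (1.61, others 0.491 to 0.652). It was lower for CG42521 (10.3 CPM, others 16.5 to 16.8). Fas3, klar and Mkp3 are 3 of the 8 candidate genic sources. Their rows were not called against total RNA, and CG42521 kept its call without library 4. By rRNA share library 1 stood apart instead, with 79.7% of its sense counts against 66.9%, 65.3% and 63.6% in libraries 2, 3 and 4.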

How the results depend on the processing

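No call of a named 3' UTR row changed direction in the comparisons of genotypes or of immunoprecipitate and total RNA. Scaled to microRNA counts, 6 rows reversed between sperm and testis: brat (1.06), Myc (0.41), Thd1 (0.64), CG33523 (0.21), CG40191 (0.39) and RpL10Ab (0.50), of which brat and RpL10Ab were not called. Over all alternatives for the named rows, 1396 values kept direction and side of the threshold, 282 lost the call, 23 gained it, 6 reversed, and 11 T1 to T3 ratios moved beyond their interval (tj to 6.64 with total counts as library size). Of 13 calls in piwi mutants 4 held in every fit that left out a library, of 26 named in aub mutants 2, of 10 between the mutants 2, of 37 named in the immunoprecipitate 17, and of 43 named between sperm and testis 37.

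Counts of called rows were, for piwi, aub and aub against piwi, 26, 49 and 21 with DESeq2, 67, 120 and 48 with no filter, and 25, 60 and 120 scaled to microRNA; with only the 2 mutant groups the last was 16. In the immunoprecipitate 298 rows were higher and 293 lower with no filter, and 316 and 356 with the stricter one. For sperm against testis the counts were 731 with DESeq2 and 931 with T1, T2 and T3 as 1 group. Leaving out 1 library gave 6 to 21, 2 to 32, 2 to 10, 202 to 887 (immunoprecipitate) and 1192 to 1644 (sperm against testis). The test of 3' UTR against exon called 1, 0 to 1, 1, 0 and 0 to 29 genes in those fits. With the limma ratio test it called 2, 2 and 2 in the genotypes and 15 between sperm and testis, with limma's test of row usage 0 in aub mutants and 13 between sperm and testis, and with the stricter filter 3 in the last.

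Same-numbered sperm libraries correlated weakly, at -0.07 to 0.16, but 7 of 9 libraries correlated best with their own number. The main fits held no term for replicate number, and whether the number marks a shared batch is not in the labels. The 2 seminal vesicle pairs correlated at 0.18 and 0.05, and no label ties their numbers. With replicate number as a block, the counts were 18, 41, 13 and 860 (immunoprecipitate), and the test of 3' UTR against exon called 0 genes in aub mutants and 10 in the immunoprecipitate.

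The share differences between groups depended on single libraries. Leaving out 1 library, the 3' UTR share of counts outside rRNA differed by -2.52 to 1.14 points (piwi), -1.18 to 2.48 (aub), 0.254 to 1.96 (aub against piwi), 2.12 to 2.90 (immunoprecipitate) and 3.68 to 7.34 (sperm against testis), and the share of UTR plus exon counts by -3.95 to 0.955, -1.83 to 3.07, 1.32 to 2.95, -2.63 to -0.629 and 0.167 to 5.07. With genic counts as denominator, the immunoprecipitate lay 1.59 points below total RNA (-1.59, exact permutation p = 0.467). Without the 10 rows with the most counts, sperm lay below testis in the share of UTR plus exon counts (-2.36, exact permutation p = 0.3). With all sense counts as denominator, T1, T2 and T3 had 1.29%, 1.43% and 1.27%. The cause of these shifts was not tested.

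Depth limits rows near 3 counts a library, and calls against the 2 total RNA libraries or the unreplicated testis points are the least secure. Read lengths and UTR lengths are not in the tables.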

Other observations

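3' UTRs of the genes of the piRNA pathway itself were hardly read. Of 30 listed genes 29 have a 3' UTR row, and 3 had enough counts to be tested in the seminal vesicle, 2 between sperm and testis and 1 among the sperm genotypes, with no call by edgeR in any comparison. None of the 7 rows of germ line stem cell and spermatogonial genes reached the tests. Of the 6 cyst and hub markers, 4 were tested in the immunoprecipitate with no call (median log2 fold change 0.53), and 3 between sperm and testis, where 1 rose and 1 fell; 2 were tested among the genotypes with no call. Seminal fluid rows, which rose in sperm over testis, had a median of 0.03 over 10 tested rows in the immunoprecipitate, with no call. Translation elongation and mRNA-binding genes rose in 4 of 7 tested rows in sperm over testis (median 1.09, against 0.86 for all 3' UTR rows, of which 33.8% were called higher) and in none of 7 among the genotypes. Calls were rare among the genotypes, with 13 (piwi), 29 (aub) and 10 (aub against piwi) of 2656 tested 3' UTR rows.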
